A study of Mus musculus with 8 samples.

Results

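Heat shock proteins and J-domain proteins are the molecular chaperones that help other proteins fold, assemble, cross membranes or be broken down, and their transcripts were followed here in mouse kidney. The set was chosen by gene symbol: heat shock protein symbols (Hsp followed by a family letter or digit), J-domain protein symbols (Dnaja, Dnajb or Dnajc followed by a digit), and the regulators Hsf1, Hsf2 and Bag3. Of 20245 entries in each file, 74 symbols matched, and 70 reached 1 FPKM in at least 2 libraries, the minimum applied to every gene, so they were 70 of the 14391 genes tested. FPKM is a level scaled to transcript length and to the mapped fragments of the library. The other 4 symbols, Dnajb7, Dnajb13, Dnajc5b and Hspb9, stayed between 0 and 0.82 FPKM in all libraries.

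The samples were whole kidneys of C57BL/6 mice, wild-type (WT) or with autosomal dominant polycystic kidney disease (PKD), with DMSO as the vehicle or with FP, which the design text gives as flavopiridol. Flavopiridol inhibits cyclin-dependent kinases, among them CDK9, the kinase of P-TEFb, which releases paused RNA polymerase II into elongation. The 4 groups, WT_DMSO, WT_FP, PKD_DMSO and PKD_FP, had 2 libraries each. The sources used here do not name the gene mutated in the PKD mice, the dose, the age or the sex. The labels also do not say whether the replicates were separate animals, so the p-values below reflect only how far these samples spread, which may be technical.

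HSP70 proteins bind short greasy stretches of unfolded clients in a cycle driven by ATP; J-domain proteins deliver the clients and speed up ATP hydrolysis, and nucleotide exchange factors such as BAG proteins reset the cycle. HSP90 acts later, on nearly folded clients such as kinases and receptors, small heat shock proteins hold unfolded clients without ATP, and the chaperonin HSP60 with its lid HSP10 folds proteins inside mitochondria. In the heat shock response, HSF1 binds heat shock elements, inverted repeats of the unit GAA, in the promoters of cytosolic chaperone genes. In the unfolded protein response of the endoplasmic reticulum, ATF6 acts through endoplasmic reticulum stress elements in the promoters of genes such as Hspa5. Release of paused RNA polymerase by P-TEFb has been studied for many years on heat shock genes.

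RefSeq promoters (build GRCm38.p6, the assembly of mm10), from 250 bases before to 50 after a transcription start, were given for 56 of the 70 genes, as 73 windows. Windows for Dnajc2, Dnajc5, Dnajc11, Dnajc12, Dnajc18, Dnajc22, Dnajc30, Hsf1, Hsp90aa1, Hsp90ab1, Hspa8, Hspa9, Hspa13 and Hspb2 are missing entries. The following stretches, written 5′ to 3′ in the direction of the gene, are shown because they hold the elements that heat shock factor and ATF6 are known to bind. Capitals mark every match. In the first 4 they mark heat shock elements, runs of GAA units that alternate in direction with 2 bases between them: GAANNTTC or TTCNNGAA for 2 units, and a further unit on either side for 3 units. In the last 3 they mark the endoplasmic reticulum stress element, CCAAT and CCACG with 9 bases between them. Both strands were searched. Stretches that lie in an exon of any GENCODE M21 transcript were left out, or shown only as 30 bases around the element.
Hspa1b: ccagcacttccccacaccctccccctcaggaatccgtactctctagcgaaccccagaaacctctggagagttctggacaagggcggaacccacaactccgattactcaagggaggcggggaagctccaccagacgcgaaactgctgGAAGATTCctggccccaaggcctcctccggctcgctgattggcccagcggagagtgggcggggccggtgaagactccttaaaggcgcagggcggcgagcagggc
Hspb1: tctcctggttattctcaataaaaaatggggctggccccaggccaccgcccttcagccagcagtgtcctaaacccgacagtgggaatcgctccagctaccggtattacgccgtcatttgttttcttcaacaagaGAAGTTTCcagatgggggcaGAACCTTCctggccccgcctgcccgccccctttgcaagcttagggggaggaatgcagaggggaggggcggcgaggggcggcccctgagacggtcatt
Dnajb6: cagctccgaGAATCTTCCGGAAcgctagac
Hspd1 and Hspe1: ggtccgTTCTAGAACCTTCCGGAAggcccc
Hspa5: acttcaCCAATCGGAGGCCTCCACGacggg
Hsp90b1: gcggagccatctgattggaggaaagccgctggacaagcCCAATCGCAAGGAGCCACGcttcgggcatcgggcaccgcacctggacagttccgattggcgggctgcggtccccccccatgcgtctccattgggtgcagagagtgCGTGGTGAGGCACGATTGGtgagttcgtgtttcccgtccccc
Dnajc3: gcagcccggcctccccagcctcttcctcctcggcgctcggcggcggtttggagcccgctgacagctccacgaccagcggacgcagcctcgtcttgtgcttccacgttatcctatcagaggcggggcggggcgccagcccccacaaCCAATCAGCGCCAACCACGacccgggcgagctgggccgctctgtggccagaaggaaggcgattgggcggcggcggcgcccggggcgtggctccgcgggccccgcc

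The Hspa1b stretch lies at chr17:34959239-34959488 on the minus strand and ends at the base before the start; its element covers bases 104 to 97 before the start. The Hspb1 stretch lies at chr5:135887669-135887918 on the plus strand and holds 2 matches, at bases 117 to 110 and 97 to 90 before the start. The Dnajb6 stretch lies at chr5:29735843-29735872 on the plus strand, with a 3-unit element at bases 46 to 34 before the start. Hspd1 and Hspe1, which encode HSP60 and HSP10, lie head to head on chromosome 1, and 215 bases separate the start of Hspe1 from the Hspd1 start that lies upstream of it, while a further annotated Hspd1 start lies inside Hspe1. The stretch between them, at chr1:55088053-55088082 and written on the plus strand, holds 2 overlapping 3-unit matches that cover bases 89 to 72 before the start of Hspe1. The Hspa5 stretch lies at chr2:34772019-34772048 on the plus strand, with its element at bases 65 to 47 before the start. The Hsp90b1 stretch lies at chr10:86705510-86705694 on the minus strand and holds 2 elements, at bases 212 to 194 and 107 to 89 before the start, the second on the opposite strand. The Dnajc3 stretch lies at chr14:118937682-118937931 on the plus strand, with its element at bases 105 to 87 before the start.

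A 3-unit heat shock element was found in the windows of 4 of the 56 genes, Dnajb6, Hspd1, Hspe1 and Hsph1 (7.14%), against 0.574% of the 10801 tested genes with a window. The shorter 2-unit element, which every 3-unit match contains, was found for 15 of the 56 (26.8%) against 14.3% of tested genes. Its 15 genes include Hspa1a, Hspa1b, Hspb1, Hspb8, Bag3, Dnaja1 and Dnajb4. The endoplasmic reticulum stress element was found for Hspa5, Hsp90b1 and Dnajc3 (5.36%) against 0.176% of tested genes. These matches describe the letters in the windows and not binding.

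FPKM sums per library ranged from 485924 to 572661, and 12788 to 13810 genes per library reached 1 FPKM. The files give no read counts. From the steps between the lowest values, the depth was estimated at 14400000 to 18900000 fragments per library. No batch is named in the labels. With 2 libraries a group, the smallest p that a two-sided exact permutation test can give is 0.333, so genes were tested with limma, a model over all genes and libraries on log2(FPKM + 1), with Benjamini-Hochberg adjustment over the 14391 genes. A gene is called here where that adjusted p was under 0.05, and log2 fold changes are given on that scale with their standard error (SE), which understates changes of genes with low values. In simulated data with 200 changed genes of 14391, 22% of 2-fold and 76.5% of 4-fold changes were recovered for PKD_DMSO vs WT_DMSO. A gene without a call may therefore still differ.

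The chaperone pool of the kidney was dominated by a few cytosolic genes. FPKM is per length, so levels can be set side by side: Hspa8, the constitutive cytosolic HSP70, averaged 1092 FPKM over the 8 libraries and made up 25.23% of the summed level of the 70 genes. Hsp90ab1, the constitutive cytosolic HSP90, averaged 639 and Hsp90aa1, its inducible counterpart, 258.9 FPKM. The endoplasmic reticulum HSP90 gene Hsp90b1 averaged 220.1 and the endoplasmic reticulum HSP70 gene Hspa5 152 FPKM. Of the mitochondrial chaperones, Hspe1 averaged 211, the mitochondrial HSP70 gene Hspa9 150.9 and Hspd1 107.6 FPKM. Those 8 were the genes with a mean of 100 FPKM or more, while 40 lay from 10 to 100 and 22 under 10, with a median of 19.28 FPKM. The summed level differed little between libraries, from 4107 to 4688 FPKM. Across the 8 libraries the widest relative spread belonged to Dnajc12, a co-chaperone of aromatic amino acid hydroxylases, with a coefficient of variation of 83.6%, followed by Dnajc6, the auxilin of clathrin uncoating (73.7%), Hspb8 (62.9%), Hsph1 (58.5%) and Hspb1 (52.9%).

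**Figure D1:**
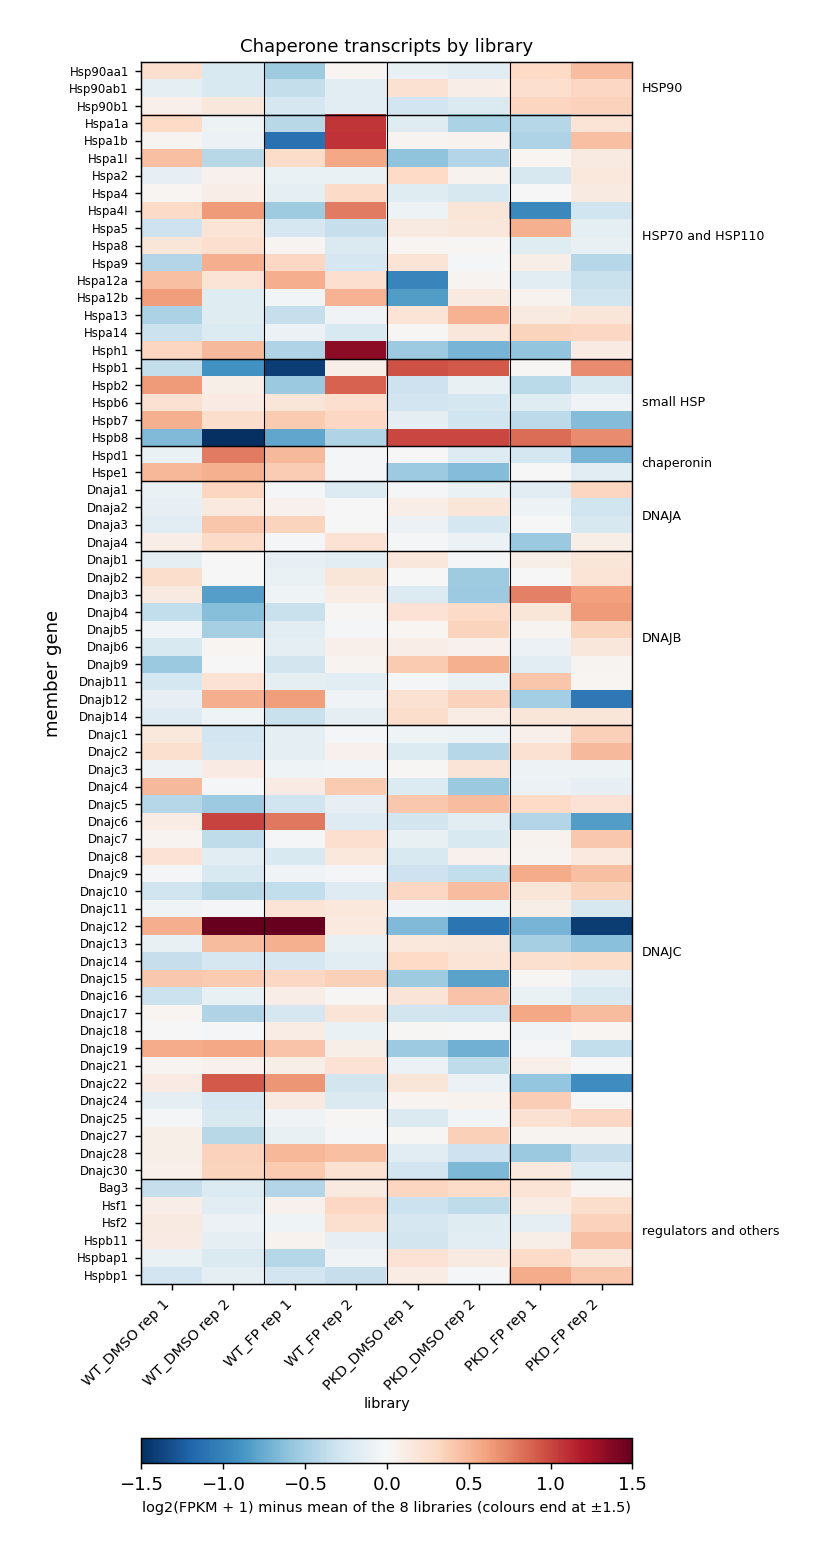
Heat map of the 70 chaperone transcripts, 1 row a gene and 1 column a library, coloured by log2(FPKM + 1) minus the gene's mean over the 8 libraries. Hspb8 is red in the 4 PKD libraries, Hspe1, Dnajc15 and Dnajc19 are bluest in PKD_DMSO, and Hspa1a, Hspa1b and Hsph1 are darkest red in WT_FP replicate 2.

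The comparison of PKD_DMSO with WT_DMSO asks how the cystic kidney differed from the wild-type kidney without drug. Hspb8 rose most, Dnajc5, Dnajb4, Dnajc10, Hspa13 and Dnajc14 rose by less, and Hspe1, Dnajc12, Dnajc15 and Dnajc19 fell. That is 6 of the 70 genes higher (8.57%), where 14.8% of all genes tested were called higher, and 4 lower (5.71%), where 7.52% of all genes were called lower. As deposited, both shares of the set were below those of all genes. At an unadjusted p under 0.05, 11 of the 70 were higher and 11 lower, against 3583 higher and 1890 lower of all genes tested. Values without overlap were common in this comparison, with 19 of the 70 genes higher and 25 lower in PKD_DMSO. The share over all genes was not counted here. Separate values of 2 and 2 libraries alone correspond to the exact permutation p of 0.333 given above. The median log2 fold change was −0.06 over the 70 genes and 0.12 over all genes tested, with a range from −1.92 to 2.17 in the set.

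Which genes of the set were called depended on scaling and on single libraries. After median-of-ratios scaling, which set the median of all genes to −0.01, 4 of the set were higher and 7 lower, and after quantile normalization 5 and 9. Of these, 4 higher and 3 lower after median-of-ratios scaling were among the 10 calls above, and 3 and 4 after quantile normalization. The rest were other genes of the set. The lower share of the set then no longer lay below that of all genes, with 10% against 9.44% after the former and 12.9% against 10.6% after the latter. Over all genes the split was 2130 higher and 1082 lower as deposited, 1524 and 1358 after median-of-ratios scaling, and 1699 and 1523 after quantile normalization. Without PKD_DMSO replicate 2 no gene of the set was called. Without PKD_DMSO replicate 1 there were 2 higher and 3 lower, and without either WT_DMSO replicate 3 and 3. A lone remaining library is then assumed to vary like those of the other groups. Leaving out PKD_DMSO replicate 2 was the only one of 16 alternatives that ended the calls of Hspb8, Dnajc5, Dnajc15, Dnajc19 and Hspe1.

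**Figure D2:**
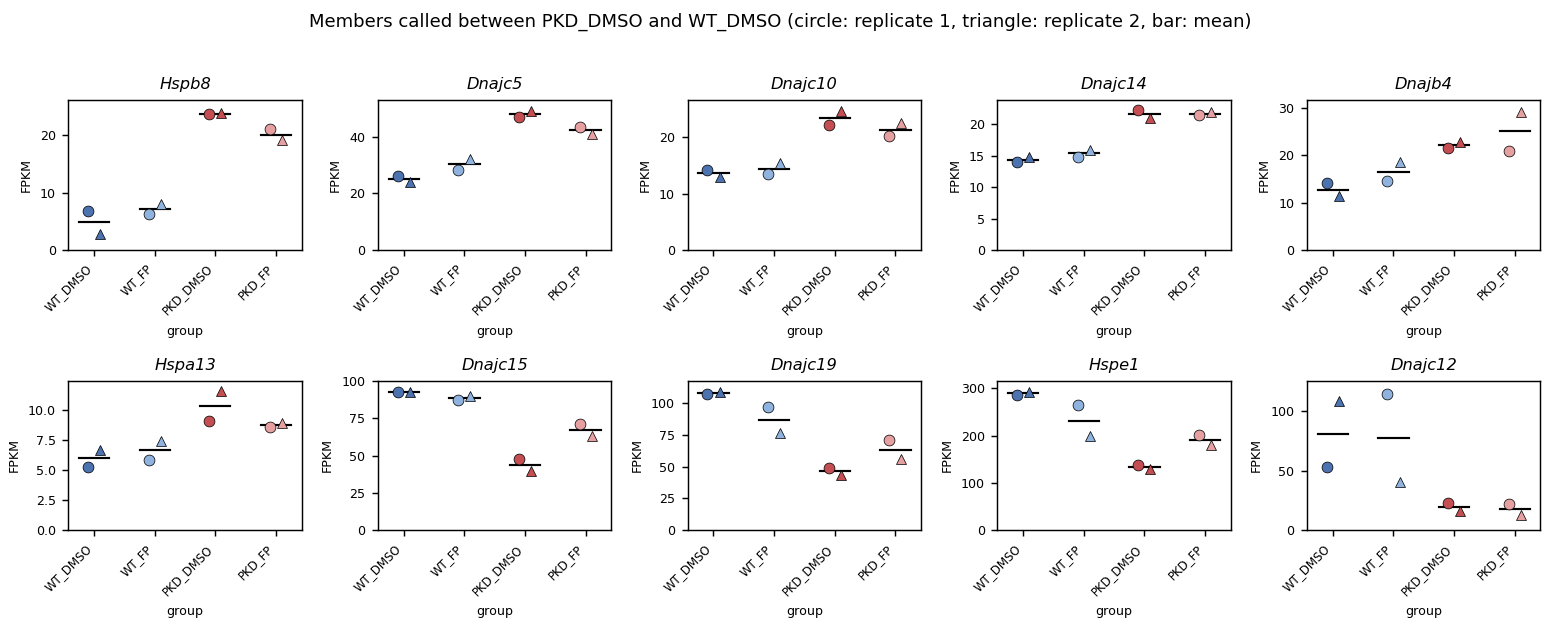
FPKM of the 10 genes called between PKD_DMSO and WT_DMSO, by group, with a circle for replicate 1, a triangle for replicate 2 and a bar at the mean; each vertical axis starts at 0. In all 10 panels the PKD_DMSO values lie apart from the WT_DMSO values, and the PKD_FP values of Dnajc15, Dnajc19 and Hspe1 lie between those of PKD_DMSO and WT_DMSO.

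Among the small heat shock proteins, Hspb8 stood apart. Hspb8 partners with BAG3 to route misfolded proteins to autophagy (chromosome 5, 116408491 to 116422864). It measured 6.80 and 2.88 FPKM in WT_DMSO, 6.22 and 8.05 in WT_FP, 23.8 and 23.8 in PKD_DMSO, and 21.1 and 19.2 in PKD_FP. All 4 PKD libraries were above all 4 WT libraries. The log2 fold change of PKD_DMSO over WT_DMSO was 2.17 ± 0.32 (SE; limma with Benjamini-Hochberg, adjusted p = 0.00705). The partner gene Bag3 measured 14.2 and 15.8 FPKM in WT_DMSO against 23.2 and 22.5 in PKD_DMSO, without overlap. Its log2 difference of 0.58 ± 0.21 was not called (limma, adjusted p = 0.0867), but it passed when either WT_FP library was left out (0.0447 and 0.0443).

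Hspb1, the stress-inducible HSP27 that guards actin filaments, measured 59.4 and 40.0 FPKM in WT_DMSO and 148 and 145 in PKD_DMSO, again without overlap. In the drug groups it spread from 27.9 to 80.9 in WT_FP and from 76.9 to 125 in PKD_FP. Its log2 difference under vehicle, 1.57 ± 0.49, missed the threshold (limma, adjusted p = 0.0616), but passed it when either WT_FP library was left out (0.0197 and 0.0193), with only the 2 groups compared (0.0234) and after quantile normalization (0.0465). The muscle-type members Hspb6 and Hspb7 pointed the other way without a call: Hspb6 differed by −0.45 ± 0.15 (adjusted p = 0.0661, limma) and Hspb7 by −0.61 ± 0.19 (adjusted p = 0.0615, limma). Of the 5 small heat shock protein genes of the set, 1 was higher and 0 lower, where 14.8% of all genes were called higher and 7.52% lower. Their median log2 difference, −0.45, was below 0. The summed level of these 5 genes, carried by Hspb1 and Hspb8, was 59.9 to 88.0 FPKM in WT_DMSO and 181 to 184 in PKD_DMSO. That sum leaves out Cryab (alpha-B crystallin), a more abundant small heat shock protein gene whose symbol falls outside the set. Cryab measured 489 and 398 FPKM in WT_DMSO and 345 and 372 in PKD_DMSO, and was not called. Its replicates were 185 and 933 FPKM in WT_FP and 449 and 875 in PKD_FP. Below, it is counted with the co-chaperones. Hspb11, which carries a heat shock symbol but encodes an intraflagellar transport protein of cilia, was not called in any of the 4 comparisons.

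The cytosolic HSP70 and HSP90 machinery showed no call for its abundant members. Hspa8 measured 1234 and 1291 FPKM in WT_DMSO and 1112 and 1095 in PKD_DMSO, a log2 difference of −0.19 with a 95% interval from −0.57 to 0.18. Hsp90ab1 measured 568 and 537 FPKM in WT_DMSO and 740 and 675 in PKD_DMSO, without overlap. Its log2 difference of 0.36 ± 0.15 was not called (limma, adjusted p = 0.138), although it was after quantile normalization (0.0346). Hsp90aa1 overlapped between the 2 groups, with a log2 difference of −0.15 and an interval from −0.73 to 0.43.

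The inducible HSP70 genes Hspa1a and Hspa1b, the classical readout of heat shock, were not called either. Hspa1b measured 67.5 and 61.7 FPKM in WT_DMSO and 67.2 and 67.7 in PKD_DMSO. The log2 difference of Hspa1b was 0.06, with a wide interval from −1.51 to 1.64, because the shared spread of this gene includes the WT_FP libraries described below. Hspa1a differed by −0.44, with an interval from −1.56 to 0.68. The 2 genes are near-identical copies, 10120 bases apart on chromosome 17, so how reads were split between them is uncertain. Hsph1, the HSP110 nucleotide exchange factor for HSP70, was lower in both PKD_DMSO libraries (28.7 and 25.7 FPKM) than in WT_DMSO (53.0 and 59.8), a log2 difference of −1.02 ± 0.54 (limma, adjusted p = 0.212). It passed the threshold when WT_FP replicate 1 or replicate 2 was left out (0.0412 and 0.0403) and with only the 2 groups compared (0.0260).

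Of the cytosolic J-domain proteins that serve HSP70, Dnajb4 rose. Dnajb4 (chromosome 3, 152181580 to 152210432) measured 14.1 and 11.5 FPKM in WT_DMSO and 21.5 and 22.8 in PKD_DMSO. Its log2 fold change was 0.76 ± 0.21 (limma, adjusted p = 0.0440), a call that 8 of the 16 alternatives ended. Dnajb1, the classical inducible HSP40, measured 16.5 and 18.2 against 20.6 and 17.8 FPKM and overlapped. Dnaja1 overlapped as well, with 53.5 and 71.8 against 56.5 and 53.4 FPKM. The list of 13 cytosolic stress-inducible genes also holds the constitutive Hspa8 and Hsp90ab1. Across these 13, 2 were called higher (Dnajb4 and Hspb8) and 0 lower, about the 14.8% of all genes called higher. Their median log2 fold change was 0.06 against 0.12 over all genes.

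The heat shock regulators themselves did not pass. Hsf1 measured 21.8 and 18.1 FPKM in WT_DMSO and 16.1 and 15.3 in PKD_DMSO, a log2 difference of −0.33 ± 0.16 (limma, adjusted p = 0.181). It was called lower after median-of-ratios scaling (−0.48, adjusted p = 0.0424) and quantile normalization (−0.48, adjusted p = 0.0468), both with limma. Hsf2 differed by −0.24, with an interval from −0.74 to 0.27.

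Of the 10 genes listed for the endoplasmic reticulum, 2 rose, Hspa13 and Dnajc10, and 0 fell, where 14.8% of all genes were called higher and 7.52% lower. Dnajc14, also called higher and described below, was not on that list. The median log2 fold change of the 10 was 0.15, close to the 0.12 of all genes. Dnajc10 encodes ERdj5, a J-domain protein that reduces disulfide bonds of proteins bound for degradation (chromosome 2, 80315446 to 80354055). It measured 14.1 and 13.0 FPKM in WT_DMSO and 22.1 and 24.7 in PKD_DMSO, a log2 change of 0.74 ± 0.15 (limma, adjusted p = 0.0159), a call that ended without either PKD_DMSO library or without WT_DMSO replicate 2. Hspa13, a microsomal HSP70 (chromosome 16, 75755190 to 75767276), measured 5.27 and 6.73 against 9.10 and 11.6 FPKM. Its log2 fold change was 0.70 ± 0.19 (limma, adjusted p = 0.0449), and 12 of 16 alternatives ended the call.

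The main lumenal chaperones were not called. Hspa5 (BiP) measured 120 and 171 FPKM in WT_DMSO and 164 and 168 in PKD_DMSO and overlapped, with a log2 difference of 0.21. Hsp90b1 (GRP94; chromosome 10, 86690841 to 86705444) was lower in both PKD_DMSO libraries, 178 and 187 FPKM, than in WT_DMSO, 229 and 244. Its log2 difference of −0.37 ± 0.14 was not called (limma, adjusted p = 0.0974). Dnajc3, also called P58IPK, overlapped, so the 3 genes with an endoplasmic reticulum stress element in their window gave no call here. Dnajb9 (ERdj4), a target of XBP1, measured 14.5 and 21.8 against 29.0 and 32.1 FPKM, without overlap. Its log2 difference was 0.74 ± 0.22 (limma, adjusted p = 0.0528), and it was called without WT_DMSO replicate 2 (0.0394).

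Of the mitochondrial chaperones, 3 of 8 fell, Hspe1, Dnajc15 and Dnajc19, and 0 rose, where 7.52% of all genes were called lower and 14.8% higher. The median log2 fold change of the 8 was −0.56. Hspe1, the HSP10 lid of the chaperonin (chromosome 1, 55088148 to 55091317), measured 285 and 293 FPKM in WT_DMSO, 264 and 198 in WT_FP, 138 and 129 in PKD_DMSO, and 202 and 180 in PKD_FP. The PKD_DMSO libraries were the lowest of the 8. The log2 fold change was −1.11 ± 0.18 (limma, adjusted p = 0.00951). Hspd1, the HSP60 barrel transcribed from the other side of the same interval, measured 96.2 and 177 FPKM in WT_DMSO against 103 and 89.6 in PKD_DMSO. Those values overlapped, with a log2 difference of −0.44 and an interval from −1.22 to 0.34. The annotated 5′ ends of Hspd1 and Hspe1 overlap on opposite strands, so reads from there cannot be told apart if counting ignored strand, a point on which the sources used here are silent.

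Dnajc15 and Dnajc19 are J-domain proteins of the inner membrane that belong to or resemble the motor that pulls proteins into the matrix. Dnajc15 (chromosome 14, 77826217 to 77874917) measured 92.8 and 92.4 FPKM in WT_DMSO, 87.4 and 89.7 in WT_FP, 48.0 and 39.8 in PKD_DMSO, and 71.0 and 63.1 in PKD_FP. It was lower in all 4 PKD libraries than in all 4 WT libraries, with a log2 fold change under vehicle of −1.07 ± 0.15 (limma, adjusted p = 0.00638). Dnajc19 (chromosome 3, 34057280 to 34081354) measured 107 and 109 FPKM in WT_DMSO, 96.9 and 76.6 in WT_FP, 49.1 and 43.4 in PKD_DMSO, and 71.1 and 55.6 in PKD_FP. The 4 PKD libraries were again the lowest, and the log2 fold change under vehicle was −1.20 ± 0.19 (limma, adjusted p = 0.00821). Hspa9, the HSP70 of that motor, showed no difference beyond its spread, with 108 and 214 against 169 and 146 FPKM.

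Of the 26 DNAJC genes, which include those of the endoplasmic reticulum and mitochondria above, 3 were higher and 3 lower, against 14.8% and 7.52% of all genes. Dnajc5, the cysteine string protein of secretory vesicles (chromosome 2, 181518858 to 181552886), measured 26.03 and 23.9 FPKM in WT_DMSO, 28.4 and 32.3 in WT_FP, 47.0 and 49.1 in PKD_DMSO, and 43.6 and 41.1 in PKD_FP. All 4 PKD libraries exceeded all WT libraries, with a log2 fold change under vehicle of 0.92 ± 0.14 (limma, adjusted p = 0.00715). Dnajc14, which assists receptor export from the endoplasmic reticulum, measured 13.9 and 14.9 FPKM in WT_DMSO and 22.3 and 20.9 in PKD_DMSO, a log2 change of 0.55 ± 0.13 (limma, adjusted p = 0.0252), a call that 8 of 16 alternatives ended, both scalings among them. Dnajc12 (chromosome 10, 63382443 to 63408840) measured 53.4 and 109 FPKM in WT_DMSO, 115 and 40.5 in WT_FP, 22.7 and 16.6 in PKD_DMSO, and 22.0 and 12.9 in PKD_FP. It was low in every PKD library, and it varied widely between the replicates of both WT groups. Its log2 fold change of −1.92 ± 0.55 passed narrowly (limma, adjusted p = 0.0485), and 10 of 16 alternatives ended the call.

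**Figure D3:**
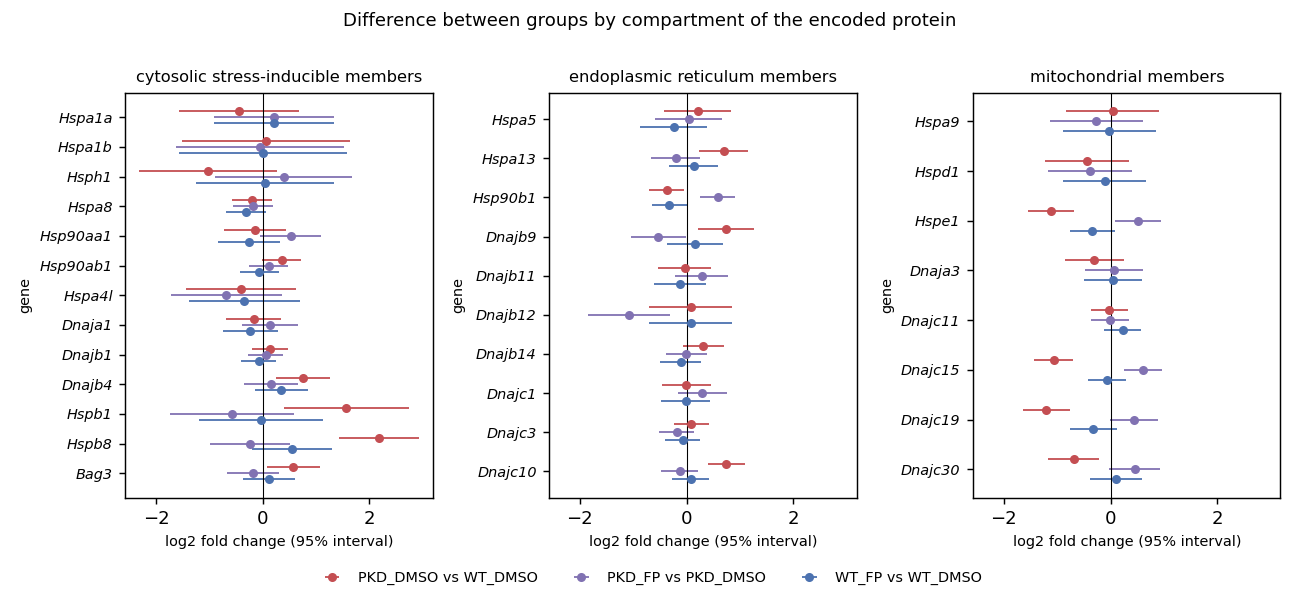
Log2 fold changes of the cytosolic stress-inducible, endoplasmic reticulum and mitochondrial chaperone genes (horizontal axis) with 95% intervals from limma, for PKD_DMSO vs WT_DMSO (red), PKD_FP vs PKD_DMSO (purple) and WT_FP vs WT_DMSO (blue). The cytosolic panel includes the constitutive Hspa8 and Hsp90ab1. In the mitochondrial panel the red points of Hspe1, Dnajc15 and Dnajc19 lie near −1 and their purple points lie above 0; red and purple share the PKD_DMSO libraries, and red and blue the WT_DMSO libraries.

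Partner genes outside the family were counted by compartment in the same comparison, against the same 14.8% and 7.52% of all genes. Of 21 co-chaperones of HSP70 and HSP90, 2 rose and 0 fell: Bag2, which inhibits the ubiquitin ligase CHIP, by 1.47 ± 0.26 (limma, adjusted p = 0.0124), and Fkbp5, the HSP90 partner in steroid receptor complexes, by 1.27 ± 0.22 (limma, adjusted p = 0.0119). Of 14 subunits of the cytosolic chaperonin TRiC and of prefoldin, 1 rose, Cct5, by 0.83 ± 0.20 (limma, adjusted p = 0.0311). Of 19 unfolded protein response partners, 2 rose, the stress sensors Ern1 (IRE1), by 1.25 ± 0.23, and Eif2ak3 (PERK), by 0.79 ± 0.17 (limma, adjusted p = 0.0130 and 0.0213), and 0 fell. Of 10 mitochondrial proteostasis partners, 3 fell and 0 rose: the matrix protease gene Clpp by 0.92 ± 0.17, the import motor gene Pam16 by 1.11 ± 0.30 and the iron-sulfur co-chaperone gene Hscb by 0.58 ± 0.14 on the log2 scale (limma, adjusted p = 0.0139, 0.0396 and 0.0308).

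Markers of kidney and other cell types moved with genotype in the same libraries. Summed proximal tubule markers were 31644 to 31792 FPKM in WT_DMSO and 1720 to 3592 in PKD_DMSO, and 7 of 10 were called lower. Summed thick limb and distal tubule markers were 1889 to 2150 against 963 to 1007 FPKM, with 4 of 7 lower, and erythroid markers 1707 to 1857 against 204 to 286 FPKM, with 6 lower. Macrophage markers were 72.7 to 115 FPKM in WT_DMSO against 659 to 1294 in PKD_DMSO, and 10 of 10 were higher. Fibroblast markers were 167 to 430 against 816 to 1667 FPKM, with 5 of 8 higher, and immediate-early genes 102 to 139 against 338 to 344 FPKM, with 7 of 10 higher. None of the proximal tubule, macrophage or fibroblast markers was at 0 in any library. The part of cell makeup in the chaperone differences was not tested, and in whole-kidney RNA fewer cells of a type and less RNA per cell cannot be told apart.

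Flavopiridol in PKD kidneys was compared with vehicle in PKD kidneys, the comparison that asks what the drug changed in disease. No chaperone gene was called in either direction by limma, and over all genes 0.00695% were called higher and 0.00695% lower, 1 gene each. At an unadjusted p under 0.05, 11 of the 70 were higher and 4 lower in PKD_FP, against 1488 and 1316 of all genes tested. The median log2 difference of the set was 0.06 against 0.04 over all genes. The replicates of 26 genes lay higher in PKD_FP without overlap, where 31.4% of all genes did, and those of 18 lay lower, where 25.2% did.

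Hsp90b1 had 271 and 276 FPKM in PKD_FP against 178 and 187 in PKD_DMSO, a log2 difference of 0.58 ± 0.14 (limma, adjusted p = 0.126). Dnajc9, a histone chaperone of dividing cells, had 28.4 and 26.2 FPKM in PKD_FP against 15.04 and 14.4 in PKD_DMSO, a log2 difference of 0.85 ± 0.14 (limma, adjusted p = 0.124). It had the smallest unadjusted p in the set, 0.000469. Hsf1 had 22.0 and 24.5 against 16.1 and 15.3 FPKM, a log2 difference of 0.54 ± 0.16 (limma, adjusted p = 0.160). Each of these pairs of groups was separate, and none of the differences passed over 14391 genes. In the other direction, Dnajb12, a J-domain protein of the endoplasmic reticulum membrane, had 10.7 and 6.91 FPKM in PKD_FP against 18.4 and 20.1 in PKD_DMSO. Its log2 difference was −1.08 ± 0.32 (limma, adjusted p = 0.163).

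The mitochondrial genes that had been low in PKD_DMSO were higher in PKD_FP, without a call. Dnajc15 differed by 0.60 ± 0.15, Hspe1 by 0.51 ± 0.18 and Dnajc19 by 0.44 ± 0.19 on the log2 scale between PKD_FP and PKD_DMSO (limma, adjusted p = 0.132, 0.200 and 0.261). Because this comparison and the vehicle comparison share the PKD_DMSO libraries, low values there raise one difference as they lower the other. Hspb8 differed by −0.23, with an interval from −0.98 to 0.52, and stayed far above the WT libraries. Fkbp5 and Ern1, which had risen in PKD_DMSO, were lower in PKD_FP, at 23.0 and 17.8 FPKM for Fkbp5 and 0.65 and 0.43 for Ern1, but neither difference from PKD_DMSO was called (log2 −1.51 and −1.58; limma, adjusted p = 0.124 for both). Erythroid markers also differed, with a sum of 204 to 286 FPKM in PKD_DMSO and 951 to 976 in PKD_FP, and the only gene called higher by limma, Hbb-bt, encodes a globin; its part in these results was not tested.

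Flavopiridol in WT kidneys gave no call in the set or among all genes (0% called higher and 0% called lower by limma). At an unadjusted p under 0.05, 0 of the 70 genes differed, against 131 higher and 52 lower of all genes tested. The log2 differences ran from −0.34 to 0.56, a narrower range than in the genotype comparisons. Hsp90b1 came closest, with 183 and 194 FPKM in WT_FP against 229 and 244 in WT_DMSO, a log2 difference of −0.32 ± 0.14 (limma, adjusted p = 1).

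The lack of a call does not mean that the inducible genes were steady, because the WT_FP replicates differed widely in several of them, though not in Dnajb1 (16.6 and 16.2 FPKM) or Dnaja1 (56.1 and 49.7 FPKM). Hspa1b measured 29.7 FPKM in WT_FP replicate 1 and 140 in replicate 2, around WT_DMSO values of 67.5 and 61.7. Hspa1a measured 20.1 and 57.9 FPKM in WT_FP, against 33.7 and 25.7 in WT_DMSO. Hsph1 measured 30.7 and 109 FPKM in WT_FP, against 53.0 and 59.8. In each, 1 WT_FP library lay below both vehicle libraries and the other above them.

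Hspb1, with 27.9 and 80.9 FPKM, and Hspa4l, an HSP110 family gene, with 5.74 and 15.8 FPKM, split the same way in WT_FP. In all, 7 of the 70 genes differed by more than 1 on the log2 scale between the WT_FP replicates, against 2 in WT_DMSO, 1 in PKD_DMSO and 0 in PKD_FP; Dnajc12 was among the 7, in the opposite order. The WT_FP interval of the Hspa1b difference from WT_DMSO ran from −1.56 to 1.58 on the log2 scale. The PKD_FP replicates split in the same order but by less, with Hspa1b at 47.1 and 90.2 and Hsph1 at 27.8 and 46.3 FPKM.

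Markers of several cell types differed between the same WT_FP libraries, fat markers most. Their sum was 1857 FPKM in WT_FP replicate 2 and 116 to 419 in the other 7 libraries, and 9 of the 10 markers reached 1 FPKM there. Ucp1, the marker of brown fat, was 99.4 FPKM in WT_FP replicate 2 and 0.17 to 7.34 elsewhere, and Adipoq, the adipocyte hormone adiponectin, 47.3 FPKM against 0.25 to 7.40. PKD_FP replicate 2 had the second highest sum, 419 against 149 FPKM in PKD_FP replicate 1. Summed striated muscle markers stayed between 10.02 and 25.4 FPKM. Collecting duct markers summed to 656 and 1706 FPKM in WT_FP replicates 1 and 2, and to 767 and 1045 in PKD_FP, the order of Hspa1b. Most of these sums came from Aqp2, with 386 and 1344 FPKM in WT_FP and 548 and 854 in PKD_FP. The list as a whole did not keep that order. Scnn1g and Slc26a4 were lower in replicate 2 than in replicate 1 in both drug groups. In PKD_FP the same held for Aqp3 and Atp6v1g3. Endothelial markers summed to 253 and 453 FPKM in WT_FP and 200 and 229 in PKD_FP. Summed proximal tubule markers were 21077 and 22342 FPKM in WT_FP, mostly from Kap at 15475 and 19670 FPKM. Every other marker on that list was lower in WT_FP replicate 2 than in replicate 1. Among them were the phosphate transporter gene Slc34a1, with 1666 and 769 FPKM, and Miox, with 2728 and 1305 FPKM. The part of fat tissue or of these kidney cell types in the inducible chaperone values was not tested.

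**Figure D4:**
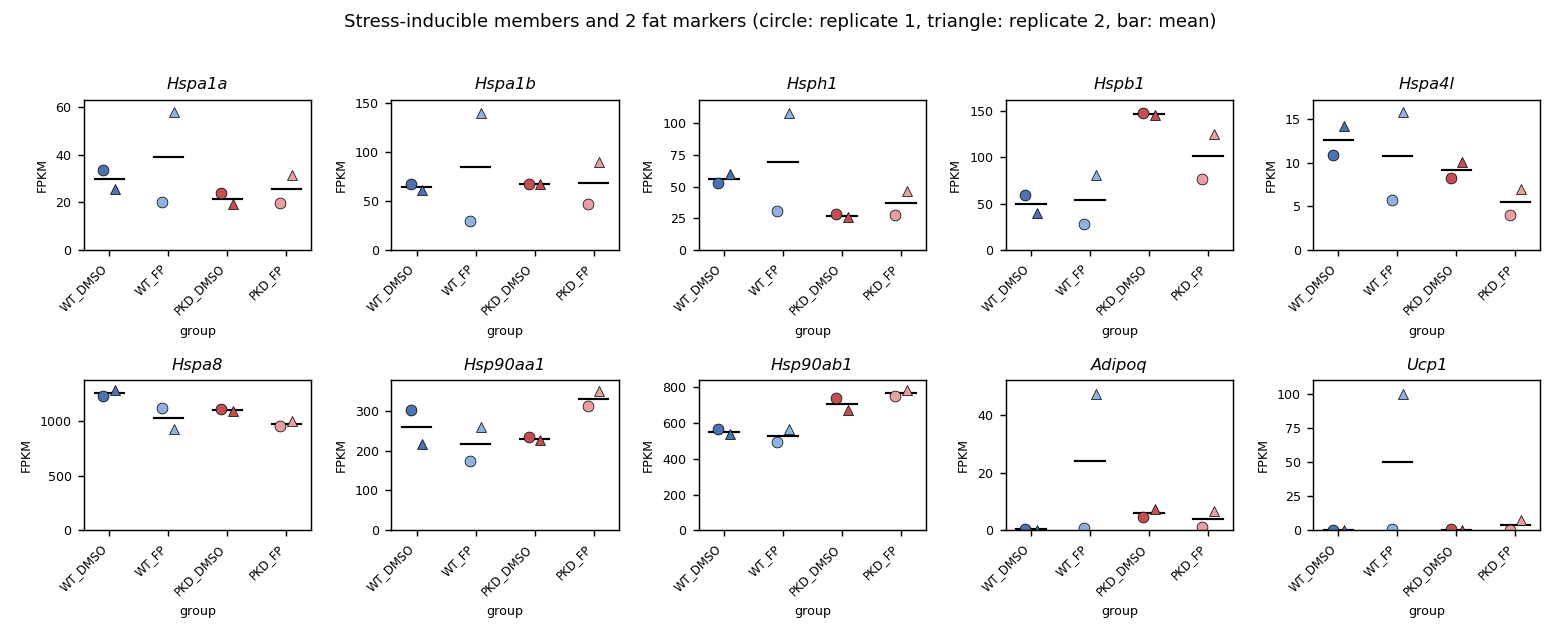
FPKM by group of 8 inducible or abundant cytosolic chaperone genes and of the fat markers Adipoq and Ucp1, with a circle for replicate 1, a triangle for replicate 2 and a bar at the mean. In WT_FP the triangle lies above the circle for Hspa1a, Hspa1b, Hsph1, Hspb1 and Hspa4l and for both fat markers, while Hspa8 shows the reverse order.

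Under the drug, PKD_FP was compared with WT_FP, a genotype comparison that shares no library with the one under vehicle. Of the 70 genes, 4 were higher (5.71%), where 8.71% of all genes were called higher, and 2 lower (2.86%), where 5.23% were called lower. Hspb8 rose again, by 1.38 ± 0.32 (limma, adjusted p = 0.0352). Hspbp1, a nucleotide exchange factor of HSP70, had 45.5 and 41.2 FPKM in PKD_FP against 24.9 and 23.8 in WT_FP, and rose by 0.80 ± 0.14 (limma, adjusted p = 0.0170). Dnajc9, at 28.4 and 26.2 against 18.2 and 18.6 FPKM, rose by 0.55 ± 0.14, and Hsp90b1, at 271 and 276 against 183 and 194 FPKM, by 0.54 ± 0.14 (limma, adjusted p = 0.0433 and 0.0471). Hspb7, at 2.12 and 1.60 against 4.37 and 4.08 FPKM, and Dnajc28, at 1.85 and 2.30 against 4.95 and 4.77 FPKM, were lower in both PKD_FP libraries. Hspb7 fell by 0.87 ± 0.19 and Dnajc28 by 0.93 ± 0.18 on the log2 scale (limma, adjusted p = 0.0318 and 0.0233).

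Each of these calls ended in some alternatives, both with a library left out and with other settings. Of 16 alternatives, 12 ended the calls of Dnajc9 and Hsp90b1, 8 that of Hspb8, 7 that of Hspb7 and 6 those of Hspbp1 and Dnajc28. Leaving out any library of PKD_FP or of WT_FP ended every one of these calls. Without WT_FP replicate 2, the log2 difference of Hspb1, which was not called with all libraries, was 1.77 in place of 1.02. Leaving out either PKD_DMSO library ended all of the calls but those of Hspbp1 and Dnajc28. After median-of-ratios scaling 1 was higher and 2 lower, while quantile normalization gave 3 and 2. Beside them, macrophage markers summed to 117 to 128 FPKM in WT_FP and 658 to 901 in PKD_FP, and proximal tubule markers to 21077 to 22342 and 3906 to 4930 FPKM, with 9 of 10 higher and 8 of 10 lower. Their part in these results was not tested.

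Partners of the chaperones were counted here too, against the same 8.71% and 5.23% of all genes. Of 21 co-chaperones, 3 rose and 0 fell: Ptges3 (p23, an HSP90 partner), Serpinh1 (HSP47, the collagen chaperone) and Sugt1, another HSP90 partner, by 0.69, 1.23 and 0.51 (limma, adjusted p = 0.0321, 0.0465 and 0.0477). Of 14 TRiC and prefoldin subunits 1 rose, Pfdn4. Of 19 unfolded protein response partners 2 rose and 1 fell. Manf, a secreted stress protein of the endoplasmic reticulum, had 78.7 and 54.5 FPKM in PKD_FP against 21.7 and 21.1 in WT_FP, and rose by 1.57 ± 0.20 (limma, adjusted p = 0.00933). Pdia4, a disulfide isomerase, rose by 0.58, and Herpud1, of the degradation machinery, fell by 1.02 (limma, adjusted p = 0.0484 and 0.04995). Of 10 mitochondrial partners 1 fell, Grpel1, the nucleotide exchange factor of mitochondrial HSP70, by 1.18 on the log2 scale (limma, adjusted p = 0.0472).

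Across genotypes the direction carried over better than the calls. All 10 genes called under vehicle had the same sign under the drug, and for 9 of them the PKD_FP and WT_FP libraries did not overlap there, but only Hspb8 was called in both. Of the whole set, 25 genes lay higher and 20 lower in PKD_FP without overlap with WT_FP, where 34.6% and 25.2% of all genes did. Of the 6 genes called under the drug, 4 had the same sign under vehicle, and Dnajc9 and Hsp90b1 had the opposite one. Over the 70 genes, 48 had the same sign in both comparisons and the log2 differences correlated with r = 0.738 (Pearson, across genes, which are not independent replicates). The same measures were not computed over all genes, so this agreement cannot be called particular to the set. Without overlap in either direction, Dnajc12 differed by −1.95 ± 0.55 under the drug and −1.92 under vehicle, and Dnajc5 by 0.47 ± 0.14 and 0.92 (limma, adjusted p under the drug 0.0607 and 0.0635).

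**Figure D5:**
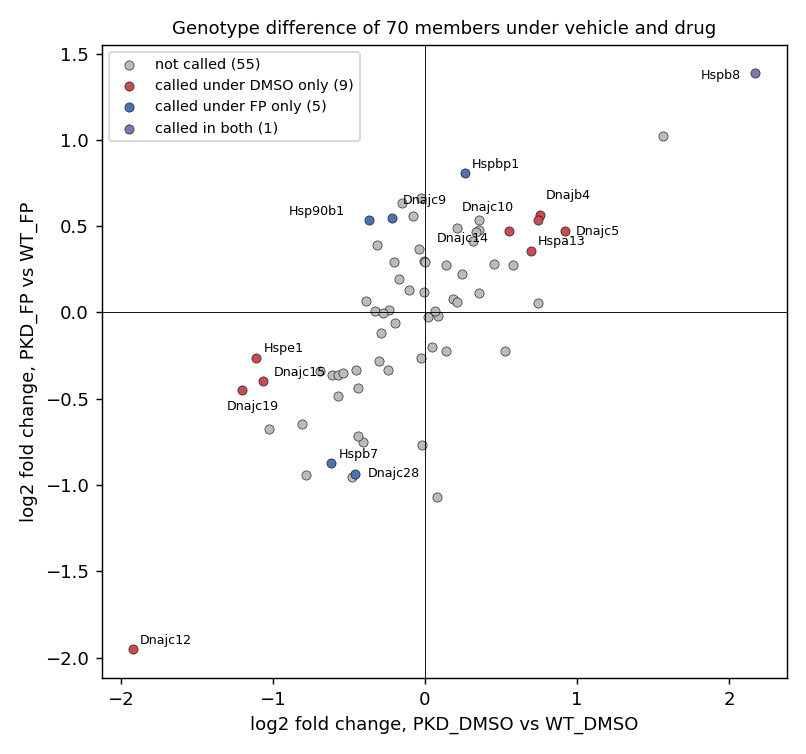
Log2 fold change of each of the 70 chaperone genes between PKD and WT kidneys under DMSO (horizontal axis) and under FP (vertical axis), coloured by the comparison in which the gene was called. Hspb8 and Dnajc12 lie at the opposite ends of the diagonal, and Hsp90b1 and Dnajc9 lie left of 0 and above 0.

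The interaction asks whether the drug acted differently in PKD and WT kidneys. No gene was called by limma in the set or among all genes (0% in each direction). At an unadjusted p under 0.05, 7 of the 70 were higher and 2 lower, against 640 higher and 976 lower of all genes tested. The 3 smallest p-values in the set belonged to Hsp90b1, Dnajc9 and Hspe1. Hsp90b1 was lower with drug in WT kidneys (229 and 244 against 183 and 194 FPKM) and higher with drug in PKD kidneys (178 and 187 against 271 and 276 FPKM), without overlap in either. The interaction was 0.91 ± 0.19 on the log2 scale (limma, adjusted p = 0.384). Dnajc9 had an interaction of 0.76 ± 0.19 and Hspe1 of 0.85 ± 0.25 (limma, adjusted p = 0.384 and 0.401), neither called.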

How the data were processed

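RNA-seq of 8 whole-kidney libraries, 2 per group, was analysed from 1 deposited table of FPKM values per library. Per the labels' protocols, RNA was extracted with TRIzol and selected with oligo(dT). The submitters' processing notes name Bowtie2, DESeq2 and mm10 without role or version. The authors' FPKM values were used as deposited. The unit was read from the values, because the header names none, and the sources used here do not give the counting tool, the annotation or the use of strand. Without counts, depth was estimated from the steps between low values, and that estimate covers counting error only.

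Values were tested with limma 3.58.1 in R 4.3.3 on log2(FPKM + 1), with trended, robust empirical Bayes variances, over all 8 libraries and the 14391 genes with 1 FPKM or more in at least 2 libraries. The p-values were adjusted over all of these by the Benjamini-Hochberg method, with a threshold of 0.05. From the files, 5 entries were left out (duplicated symbols and a symbol that was a dash). The code was tested on simulated data. Alternatives were the filter, the pseudocount, the scaling, the variance model, a replicate block, the groups in the fit and each library left out.

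The members and gene lists were chosen with earlier results of these data known. The text names a fixed list of 23 chaperone genes, up to 6 called genes per direction with the largest change in each comparison, the 3 interactions with the smallest p, and up to 4 genes per partner list with the smallest p. The genes Hspb6, Hspb11, Cryab, Dnajb12, Dnajc6, Adipoq, Slc34a1, Ucp1 and Hbb-bt were named after their values were seen. So were Kap, Miox, the single collecting duct markers, called genes outside the comparison that called them and the promoter examples.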

Additional observations from a re-analysis of the deposited data

How the results depend on the processing

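Of 256 recomputed values of called genes, 97 lost the call, 64 of them with a library left out, and 0 changed sign. Of 1752 values of uncalled genes, 15 gained a call and 98 changed sign. In PKD_DMSO vs WT_DMSO, the chaperone genes called lower numbered 7 with median-of-ratios scaling and 9 with quantile normalization, against 4. With only the groups compared, all genes called were 1261 higher and 707 lower. Leaving out 1 library at a time gave 0 to 7 chaperone genes higher, 0 to 5 lower, and 342 to 1863 higher and 147 to 974 lower of all genes, the fewest without PKD_DMSO replicate 2. In PKD_FP vs WT_FP, the chaperone genes higher numbered 1 without a low-value filter, with median-of-ratios scaling and with only the groups compared, which also gave 0 lower, and 550 higher and 325 lower of all genes. Leaving out 1 library gave 0 to 3 higher and 0 to 2 lower, and 131 to 1151 and 56 to 703 of all genes, the fewest without PKD_FP replicate 2.

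In PKD_FP vs PKD_DMSO, no alternative called a chaperone gene. All genes called were 3 higher and 2 lower without the filter, 3 and 2 without trend and robust variances, 0 higher and 0 lower with only the groups compared or any library left out, and 0 lower with the filter at 4 libraries or a pseudocount of 0.1. In WT_FP vs WT_DMSO, 1 gene was higher and 2 lower without the filter, and 1 higher without trend and robust variances. The interaction gave 4 higher and 3 lower of all genes without the filter. Leaving out 1 library gave 0 in those last 2. The cause of these moves was not tested.

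The replicate numbers gave no single pairing of the samples across the 4 groups. Deviations of same-numbered libraries correlated from −0.515 (WT_DMSO with WT_FP) to 0.485 (WT_FP with PKD_FP) over all genes. Over the 70 chaperone genes the correlation of WT_FP with PKD_FP was 0.728, so in these 2 groups same-numbered libraries deviated alike. With the replicate block, PKD_DMSO vs WT_DMSO had 5 chaperone genes higher and 3 lower, and 1438 and 785 of all genes, and Dnajb9 was called (0.0368). With the replicate block, PKD_FP vs WT_FP had 1 and 1 (Hspbp1 and Hspb7, so that the calls of Hspb8, Dnajc9, Hsp90b1 and Dnajc28 ended, at adjusted p = 0.0593, 0.0749, 0.0812 and 0.0513 with limma), and 650 and 437 of all genes, and PKD_FP vs PKD_DMSO had 1 and 0 of all genes. With the numbers crossed, chosen after seeing the data, PKD_DMSO vs WT_DMSO had 5 higher and 5 lower chaperone genes and 1863 and 1111 of all genes, and WT_FP vs WT_DMSO had 0 and 0.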
